A study of Mus musculus with 9 samples.

Results

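The Schlafen genes were followed across splenic myeloid-derived suppressor cells (MDSCs) of tumour-bearing mice. Their rows were chosen by gene symbol, Slfn1, Slfn2, Slfn3, Slfn4, Slfn5, Slfn8 and Slfn9, and all 7 were found among the 23284 symbols that the expression files list. RNA sequencing covered 3 groups of 3 samples: PMN-MDSCs (polymorphonuclear, Ly6G+) of wild-type (WT) C57BL/6J mice, Mo-MDSCs (monocytic, Ly6G- Gr-1+) of WT C57BL/6J mice, and Mo-MDSCs of p16/p21 double-knockout (DKO) mice, whose strain is labelled C57BL/6. All mice carried tumours of SCT, a spindle cell tumour line that was itself raised from a p16 knockout mouse, and the cells were taken with magnetic beads 3 weeks after injection. The labels give 3 weeks as the age, whereas the study's methods give older mice at injection. The strain label differs with the genotype, so strain and deletion cannot be told apart. Nothing states whether the 3 samples of a group came from separate mice, pools or preparations, so p-values measure only the spread between these samples.

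Schlafen proteins, named after the German word for sleeping, share a core domain and are known in mice as a family of short, intermediate and long members. Slfn1 and Slfn2 are short, Slfn3 and Slfn4 are intermediate, and Slfn5, Slfn8 and Slfn9 are long proteins that add a helicase-like part. Several members are induced by type I interferon, and the family is known for restraining the growth of lymphocytes and for roles in myeloid cells. Slfn2 is known for keeping T cells and monocytes quiescent, and Slfn4 for marking activated macrophages and a suppressive myeloid population of the stomach.

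Schlafen RNA was more abundant in PMN-MDSCs than in Mo-MDSCs, and the make-up of the family differed. Levels are given in FPKM, a fragment count scaled to both transcript length and library size, on which genes can be set side by side. The 7 members summed to between 1152 and 1502 FPKM in the 3 WT PMN-MDSC samples, 392 to 499 FPKM for WT Mo-MDSCs, and 311 to 390 FPKM for DKO-labelled Mo-MDSCs. As a share of all FPKM this was 0.162% to 0.164%, 0.0713% to 0.0810% and 0.0629% to 0.0729%. Slfn1, Slfn2 and Slfn4 together made up 92.3% to 93.3% of the family sum in PMN-MDSCs. Their part was 73.1% to 75.7% for WT Mo-MDSCs, and 69.8% to 72.9% for the DKO-labelled ones. Slfn2 was the member with the highest mean in every group. Its share was 39.5% on average in PMN-MDSCs and 50.7% in WT Mo-MDSCs, while Slfn4 made up 28.7% in PMN-MDSCs and 6.82% in WT Mo-MDSCs.

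**Figure D1:**
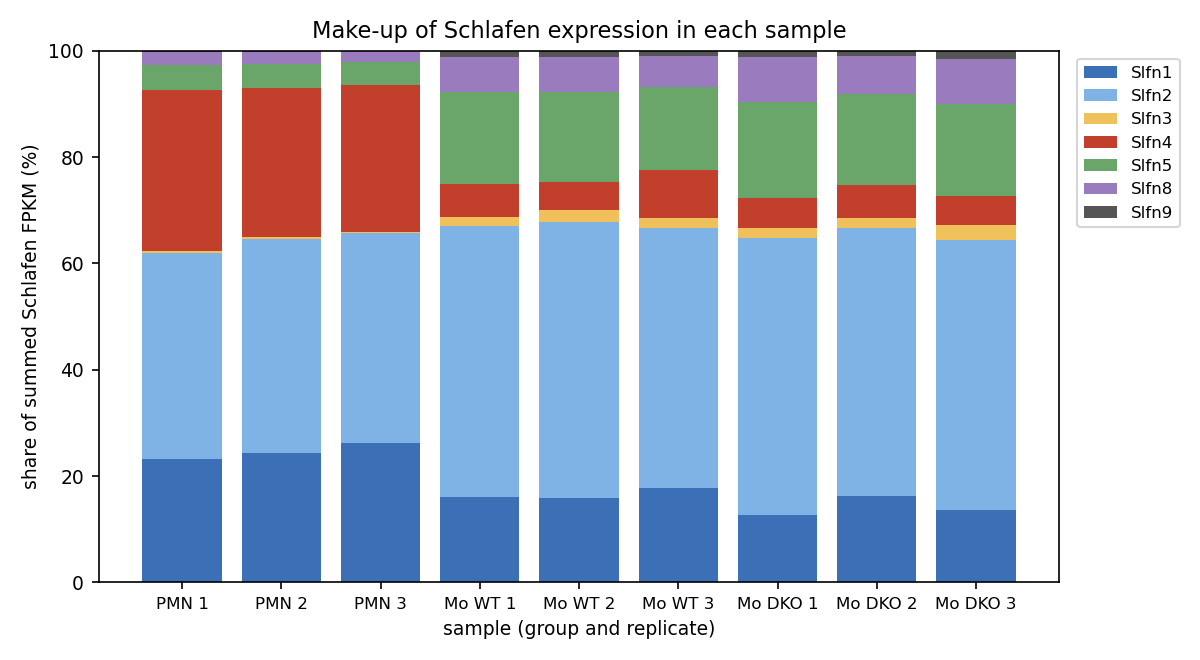
Stacked bars give each member's share (per cent) of the summed FPKM of the 7 Schlafen genes in each of the 9 samples. Slfn4 holds 27.6% to 30.4% of the bar in the 3 PMN-MDSC samples and 5.27% to 8.98% in the 6 Mo-MDSC samples.

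Slfn4 differed most between the subsets. It stood at 366, 323 and 415 FPKM in WT PMN-MDSC samples 1, 2 and 3. In WT Mo-MDSCs it stood at 28.7, 20.7 and 44.8 FPKM. The groups were far apart, and the third WT Mo-MDSC sample was the highest of its group. The mean of PMN-MDSCs was 11.7-fold higher. On the log2(FPKM + 0.1) scale, Slfn4 was lower in Mo-MDSCs by a difference of -3.61 (SE 0.26, 3 against 3 samples, adjusted p = 8.2e-05, limma across all genes with Benjamini-Hochberg adjustment). In bulk samples such as these, fewer cells of a type and less RNA per cell cannot be told apart.

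Slfn1, whose overexpression is known to stop T cell growth, stood at 279, 280 and 394 FPKM in WT PMN-MDSCs. It stood at 74.0, 62.3 and 88.2 FPKM in WT Mo-MDSCs. Every PMN-MDSC sample was thus above every Mo-MDSC sample, and the log2 difference was -2.08 (SE 0.18, adjusted p = 0.00016 by limma). Slfn2 followed the same direction with a smaller difference. Its 3 PMN-MDSC samples stood at 467, 464 and 593 FPKM and its WT Mo-MDSC samples at 235, 204 and 245 FPKM. The log2 difference of Slfn2 was -1.15 (SE 0.13, adjusted p = 0.00054 by limma), and -0.67 after quantile normalization, where it was still called. Slfn2 remained among the more abundant RNAs of Mo-MDSCs, above 96.9% to 97.2% of the genes at 1 FPKM or more in the WT samples.

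Slfn3 and Slfn9 went the other way, at low levels. Slfn3, the intermediate member next to Slfn4 on the chromosome, stood at 3.90, 3.88 and 2.95 FPKM in PMN-MDSCs and at 7.63, 8.73 and 9.43 FPKM in WT Mo-MDSCs. The groups did not overlap, and the log2 difference was 1.25 (SE 0.14, adjusted p = 0.00068 by limma). Slfn9 stood at 2.84, 2.35 and 2.08 FPKM in PMN-MDSCs and at 5.06, 4.64 and 4.71 FPKM in WT Mo-MDSCs. Its log2 difference was 0.97 (SE 0.14, adjusted p = 0.0019 by limma), again with no overlap. The ratio of Slfn4 to Slfn3 in FPKM was 83.2 to 140 in PMN-MDSCs but 2.37 to 4.75 for WT Mo-MDSCs.

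Slfn5 and Slfn8 differed little. Slfn5, a long nuclear member known as a regulator of interferon responses, stood at 56.3, 53.1 and 66.5 FPKM in PMN-MDSCs and at 80.1, 66.5 and 77.7 FPKM in WT Mo-MDSCs. The highest PMN-MDSC sample and the lowest Mo-MDSC sample of Slfn5 met at 66.5 FPKM. Its log2 difference of 0.35 (SE 0.11, adjusted p = 0.046 by limma) lay just inside the threshold of 0.05 and was lost when WT PMN-MDSC sample 1 or 2 or WT Mo-MDSC sample 1 or 3 was left out (adjusted p = 0.11 to 0.14). After quantile normalization the difference of Slfn5 was 0.61. Slfn8 stood at 29.5, 25.9 and 29.3 FPKM in PMN-MDSCs and at 30.8, 25.6 and 29.5 FPKM in WT Mo-MDSCs. These ranges of Slfn8 lay on top of each other, with a log2 difference of 0.02 and a 95% interval of -0.21 to 0.25 (adjusted p = 0.90 by limma).

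All 7 members passed the filter on low values in both comparisons. Between WT Mo-MDSCs and WT PMN-MDSCs 3 of 7 members were higher and 3 were lower in Mo-MDSCs, where 18.5% of the 11491 genes tested were called higher and 20.6% were called lower. Slfn3 and Slfn9 lay wholly above PMN-MDSCs, as 26.2% of all genes tested did, and Slfn1, Slfn2 and Slfn4 wholly below, as 26.4% did. The median log2 difference over all 7 members was 0.02, beside 0.01 over all genes tested. Single-gene exact permutation tests (two-sided) cannot go below p = 0.1 with 3 against 3 samples, and gave 0.1 for each of the 5 members without overlap. Library numbers in the labels place sample 1 of each group in a different numbered run of libraries from samples 2 and 3. Within samples 2 and 3, the log2 differences were -3.58 for Slfn4, -2.16 for Slfn1, -1.23 for Slfn2, 1.40 for Slfn3 and 1.05 for Slfn9, all 5 still called, while Slfn5 at 0.27 was not (adjusted p = 0.24 by limma).

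**Figure D2:**
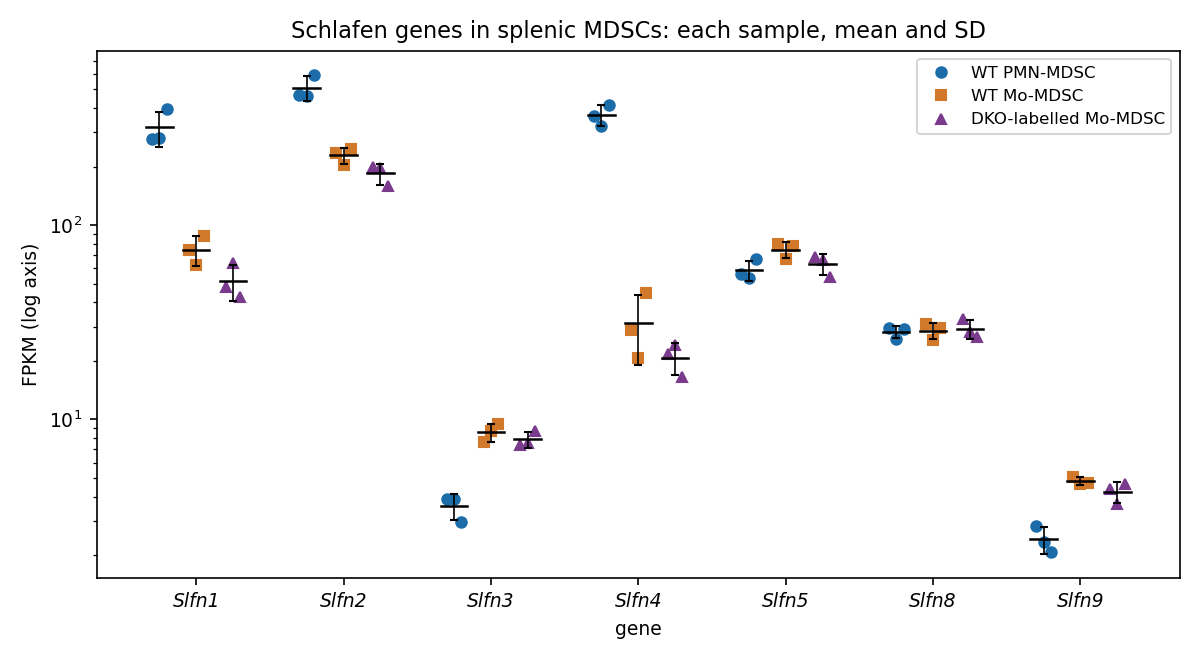
Each point is the FPKM of 1 sample on a log axis, with the group mean (bar) and SD (whiskers) for 3 WT PMN-MDSC, 3 WT Mo-MDSC and 3 DKO-labelled Mo-MDSC samples. Slfn4, Slfn1 and Slfn2 are higher in all 3 PMN-MDSC samples than in any Mo-MDSC sample, Slfn3 and Slfn9 are lower there, and Slfn8 lies between 25.6 and 32.7 FPKM throughout.

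The order of the members within a group differed as well. In PMN-MDSCs it ran from Slfn2 (508 ± 73.8 FPKM, mean ± SD, n = 3) over Slfn4 (368 ± 45.8) and Slfn1 (317 ± 65.98), which overlapped each other, to Slfn5 (58.6 ± 7.02), Slfn8 (28.2 ± 1.99), Slfn3 (3.58 ± 0.54) and Slfn9 (2.42 ± 0.39). In WT Mo-MDSCs Slfn2 (228 ± 21.6 FPKM) was followed by Slfn1 (74.8 ± 12.97) and Slfn5 (74.7 ± 7.25), which overlapped. Slfn4 (31.4 ± 12.3) and Slfn8 (28.6 ± 2.70) overlapped next, and Slfn3 (8.60 ± 0.91) and Slfn9 (4.80 ± 0.22) came last. In DKO-labelled Mo-MDSCs Slfn5 (62.9 ± 7.77) and Slfn1 (51.4 ± 10.9) overlapped behind Slfn2 (184 ± 22.9), and Slfn8 (29.1 ± 3.20) stood above Slfn4 (20.8 ± 3.96) in all 3 samples. Slfn3 (7.89 ± 0.76) and Slfn9 (4.23 ± 0.51) again came last. Slfn4 thus stood beside Slfn1 in PMN-MDSCs, and beside or below Slfn8 in Mo-MDSCs.

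The 7 genes lie side by side on mouse chromosome 11, within 264 kb (GRCm38, GENCODE M21, chr11:82951349-83215154). From the low to the high coordinate the protein-coding members are Slfn5 (+ strand), Slfn9 and Slfn8 (- strand), then Slfn2, Slfn1, Slfn4 and Slfn3 (+ strand). The 3 members lower in Mo-MDSCs, Slfn2 at chr11:83065112-83070678, Slfn1 at chr11:83116849-83122670 and Slfn4 at chr11:83175186-83190216, are next to each other, and the difference grew along that row from -1.15 to -2.08 to -3.61. Slfn3, at chr11:83191330-83215154, begins after a gap of 1113 bases beyond the end of Slfn4 and went in the opposite direction. Coding lengths are 1011 bases for Slfn1, 1134 for Slfn2, 1806 for Slfn4, 1920 for Slfn3, 2652 for Slfn5 and 2730 for Slfn8 and Slfn9.

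Other Schlafen-named genes were low. Slfn14, listed in the files under its synonym Slfn14-ps, averaged 5.53 FPKM in PMN-MDSCs, 6.23 in WT and 7.87 in DKO-labelled Mo-MDSCs, with no call. The pseudogene Slfn10-ps, between Slfn8 and Slfn2, averaged 1.39, 0.857 and 1.15 FPKM, and its log2 difference of -0.63 between WT Mo-MDSCs and PMN-MDSCs was not called (adjusted p = 0.065 by limma). Slfnl1, on another chromosome, was at or near 0. Of the genes that flank the cluster, Nle1 and Ap2b1 had log2 differences of 0.09 and -0.09, neither of them called, and Unc45b, a muscle chaperone, was too low to be tested. The noncoding AI662270, drawn because it lies between Slfn3 and Slfn14, differed by 0.36 (adjusted p = 0.023 by limma).

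**Figure D3:**
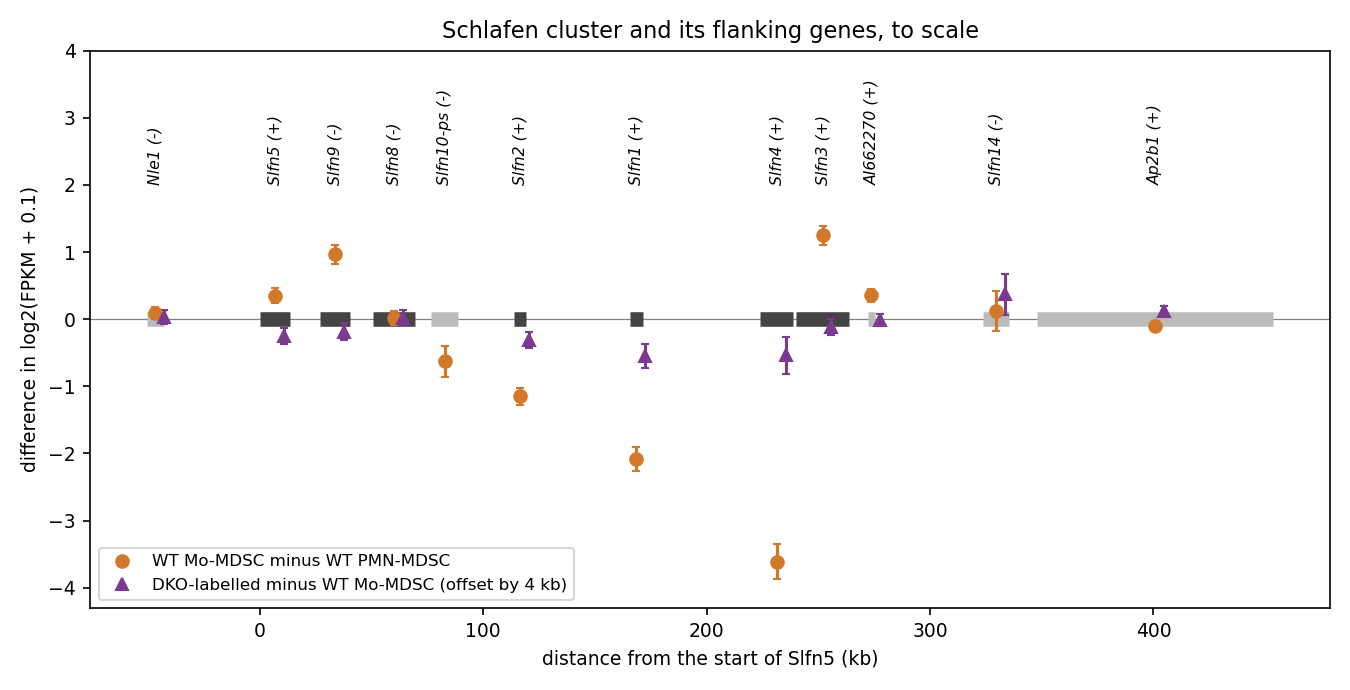
Genes of the Schlafen cluster are drawn to scale along the x axis (kb from the start of Slfn5; dark, the 7 members; light, neighbours; strand in brackets), with log2(FPKM + 0.1) differences ± SE on the y axis. Between WT Mo- and PMN-MDSCs the adjacent Slfn2, Slfn1 and Slfn4 have differences of -1.15, -2.08 and -3.61, whereas Slfn3, next to Slfn4, has 1.25 and the flanking Nle1 0.09.

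Reads of near-identical copies could be split between genes. Of all 75-base words (the read length) in the annotated transcripts, none of those of Slfn1 occurred in another gene. The share was 1.70% for Slfn2, 3.12% for Slfn4, 6.78% for Slfn3, 1.53% for Slfn5, 6.99% for Slfn8 and 5.90% for Slfn9. For Slfn8 and Slfn9 the partners were each other and Slfn10-ps. The main partner of Slfn3 was Gm11427, with 127 of its 231 shared words, and Slfn4 was among its other partners. Gm11427 was also the main partner of Slfn4, with 54 of 126 shared words. The low levels of Slfn9 and Slfn3 beside these copies are thus uncertain. The ratio of Slfn8 to Slfn9 was 10.4 to 14.1 in PMN-MDSCs but 5.52 to 6.25 for WT Mo-MDSCs. An RNA antisense to Slfn5, Slfn5os, overlaps it, and although the libraries were stranded, the strand setting of the counting is not given in the sources used here.

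The promoters of the 7 members are shown because 3 neighbours moved together and the fourth did not. Each is taken from RefSeq (GRCm38.p6), covers 250 bases before to 50 bases after the annotated start, and was found for 7 of 7 members. For Slfn1, Slfn2 and Slfn4 the whole 300 bases follow, 5′ to 3′, with the longest run of letters that all 3 share in capitals.
Slfn4 (strand +, chr11:83174936-83175235): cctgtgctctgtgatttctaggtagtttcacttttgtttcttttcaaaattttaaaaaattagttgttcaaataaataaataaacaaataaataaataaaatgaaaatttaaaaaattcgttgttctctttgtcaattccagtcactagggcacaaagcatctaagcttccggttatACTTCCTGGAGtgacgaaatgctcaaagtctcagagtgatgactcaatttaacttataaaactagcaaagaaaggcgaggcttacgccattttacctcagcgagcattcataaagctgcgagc
Slfn1 (strand +, chr11:83116570-83116869): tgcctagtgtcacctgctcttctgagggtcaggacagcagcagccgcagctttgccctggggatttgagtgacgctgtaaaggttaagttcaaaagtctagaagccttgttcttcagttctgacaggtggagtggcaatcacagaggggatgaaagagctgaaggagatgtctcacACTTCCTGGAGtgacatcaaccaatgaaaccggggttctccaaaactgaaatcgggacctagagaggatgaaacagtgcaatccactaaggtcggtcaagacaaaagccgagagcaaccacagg
Slfn2 (strand +, chr11:83064862-83065161): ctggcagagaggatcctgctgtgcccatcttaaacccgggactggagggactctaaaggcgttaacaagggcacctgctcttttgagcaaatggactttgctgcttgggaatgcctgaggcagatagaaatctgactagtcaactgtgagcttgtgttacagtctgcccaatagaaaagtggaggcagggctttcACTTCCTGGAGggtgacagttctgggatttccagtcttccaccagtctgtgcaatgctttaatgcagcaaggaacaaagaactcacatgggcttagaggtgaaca
The shared run of 11 letters, ACTTCCTGGAG, starts 73 bases before the start of Slfn4, 74 before that of Slfn1 and 55 before that of Slfn2, in each case on the gene's own strand. It was found by comparing these promoters after their values were known, and the genes are related copies. Searched on both strands, it occurs in 24 of 32544 RefSeq promoters of the same length (0.0737%). Slfn4 and Slfn1 shared a longer run of 15 letters at this place. Slfn3 holds the first 9 letters of the run 42 bases before its start, in capitals here, and those 9 letters occur in 0.842% of promoters.
Slfn3 (strand +, chr11:83191263-83191321): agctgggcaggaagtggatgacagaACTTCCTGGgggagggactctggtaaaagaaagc

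The 3 long members hold another match. The core of the interferon-stimulated response element, the site through which type I interferon is known to act, was searched as GAAANNGAAA on both strands. It was found in Slfn5, Slfn8 and Slfn9 and in none of the other 4 members, beside 3.45% of all promoters. The stretch around it is given with the core in capitals, which for Slfn8 and Slfn9 is the reverse complement.
Slfn5 (strand +, chr11:82951922-82951981): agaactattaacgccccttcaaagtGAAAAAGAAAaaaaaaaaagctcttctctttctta
Slfn8 (strand -, chr11:83020824-83020883): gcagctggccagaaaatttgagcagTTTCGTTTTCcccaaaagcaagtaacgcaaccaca
Slfn9 (strand -, chr11:82991841-82991900): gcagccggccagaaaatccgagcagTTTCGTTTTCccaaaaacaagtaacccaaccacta
The core starts 155 bases before the RefSeq start in Slfn5, 48 in Slfn8 and 45 in Slfn9. For Slfn5 the 2 annotations differ. Its RefSeq window, chr11:82951852-82952151, lies inside the gene as GENCODE places it, from chr11:82951349 on. Slfn8 and Slfn9 share a run of 20 letters elsewhere in their promoters. The gamma-activated site TTCNNNGAA was in none of the 7 members (8.33% of promoters), the C/EBP core TTGCNNAAT was in Slfn3 (2.41%), and the PU.1 core GAGGAA was in Slfn9 (28.1%). A match describes the letters of these windows and does not show that a factor binds there. Nor does the lack of a match to 1 such string show that no related site is present. Members with the interferon core had log2 differences of 0.35, 0.02 and 0.97 between WT Mo- and PMN-MDSCs. Members with the 11-letter run had -3.61, -2.08 and -1.15. That run was sought in these members because they were lower in Mo-MDSCs, so their shared direction was set by the choice and links no motif to a direction.

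Other interferon-induced genes went in both directions between the subsets. Of 36 tested effectors, antiviral and related genes that interferon is known to induce, 9 were higher and 12 were lower in WT Mo-MDSCs. Over all genes tested, 18.5% were called higher and 20.6% lower. The effectors had a median log2 difference of 0.01, beside 0.01 over all genes tested. Oasl2, an oligoadenylate synthetase-like gene, stood at 185, 194 and 243 FPKM in PMN-MDSCs and at 52.6, 44.2 and 62.2 FPKM in WT Mo-MDSCs. Its log2 difference of -1.97 (adjusted p = 0.00011 by limma) was close in size to that of Slfn1. Oasl1, a related gene, differed by -1.91, and Mx1, an antiviral GTPase, was higher in Mo-MDSCs by 2.24.

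Of 14 tested receptors and signal transducers of the pathway, 8 were lower and 3 were higher in Mo-MDSCs, beside 20.6% lower and 18.5% higher over all genes tested. Their median log2 difference was -0.37, beside 0.01 over all genes tested. Socs3, a feedback inhibitor of cytokine signalling, differed by -2.59, the kinase Tyk2 by 1.11 and the kinase Jak1 by -0.90. The receptor chain Ifnar1 (-0.06) and the regulator Irf7 (-0.03) were not called. Of 11 tested GTPases known to be induced by interferon-gamma, 4 were lower and 1 was higher, with a median of 0.14. Gbp2 differed by -1.02, Irgm2 by -0.79 and Gbp7 by -0.52. Without moderation of the variance, or without WT PMN-MDSC sample 3 or WT Mo-MDSC sample 3, 3 of these GTPases were called in place of 5.

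**Figure D4:**
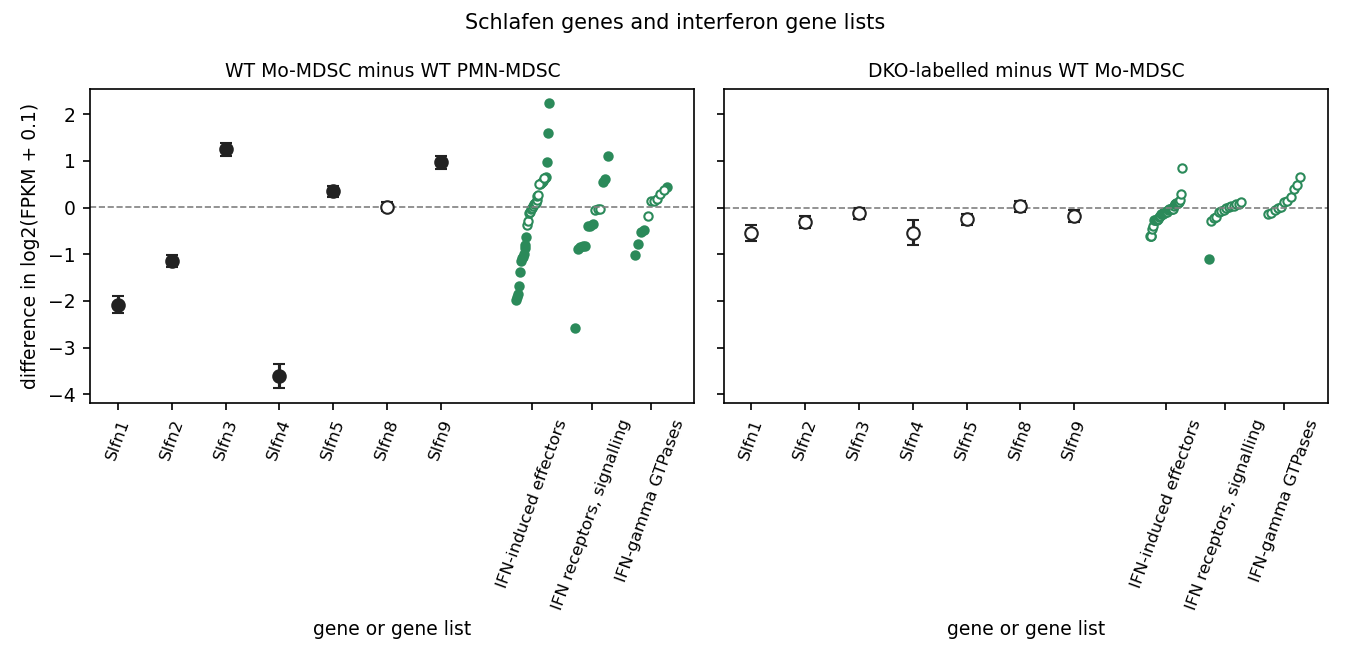
Differences in log2(FPKM + 0.1) are shown for the 7 Schlafen genes (black, ± SE) and for each tested gene of 3 interferon lists (green), filled where the adjusted p is under 0.05; the dashed line is the median of all genes tested. In the left panel Schlafen genes run from -3.61 to 1.25 and interferon-induced effectors from -1.97 to 2.24, and in the right panel no Schlafen gene is called.

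The genes whose profile was most like that of a member, by Pearson correlation of log2(FPKM + 0.1) over the 9 samples among 5933 genes, are given as a description, since all samples share the subset difference. For Slfn4 they were Trem1, Cxcr2 and Cxcr1 (r = 0.999, 0.998 and 0.998), a myeloid activating receptor and the neutrophil chemokine receptors. For Slfn1 they were Oasl2, Dhrs7 and Pygl, the liver-type glycogen phosphorylase, each with r = 0.998. For Slfn2 they were Ostf1, Dazap2 and Ccndbp1 (r = 0.996 to 0.998). Slfn3 was most like Recql, Atp8b2 and Trem2 (r = 0.990 to 0.991), and Slfn9 most like Mtif2, Slamf8 and Dnajc27 (r = 0.984 to 0.989). The likeness was weaker for Slfn5, with Gm9733, Sap30 and Klrb1f (r = 0.923 to 0.941), and for Slfn8, with Pkib, Gnpnat1 and R74862 (r = 0.855 to 0.874).

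Cell type markers moved with the Schlafen genes. Of 10 neutrophil markers 9 were listed, with Ly6g itself not among the listed symbols, and their sum was 99666 to 232737 FPKM in PMN-MDSCs. For WT Mo-MDSCs the sum was 17900 to 61874, and for the DKO-labelled ones 7063 to 17126. None of the 9 was at 0 in any group. The 8 monocyte markers summed to 1186 to 1254, 2379 to 2652 and 1916 to 2129 FPKM. Ccr2, the monocyte chemokine receptor, was at 2.36 to 2.51 FPKM in PMN-MDSCs but 281 to 362 for WT Mo-MDSCs. The 6 B cell markers were present throughout (1481 to 1715, 1064 to 1212 and 1125 to 1434 FPKM), as were the 5 red-pulp macrophage markers (4926 to 5830, 3049 to 3911 and 3249 to 5004). The T cell markers summed to 25.9 to 36.3, 18.5 to 23.8 and 18.5 to 25.01 FPKM.

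As a share of the PMN-MDSC mean, WT Mo-MDSCs held 8.54% of Slfn4, 23.6% of Slfn1 and 44.9% of Slfn2. The neutrophil markers ran from 1.66% for Cxcr2, 2.07% for Retnlg and 5.31% for Csf3r over 13.5% for Mmp8, 20.6% for S100a9 and 21.1% for S100a8. The rest held more, 59.3% for Ltf, 70.5% for Ngp and 74.5% for Camp. Cxcr2 stood at 10.02, 6.87 and 18.6 FPKM in the WT Mo-MDSC samples and at 5.58, 9.71 and 5.37 in the DKO-labelled samples, and its order of samples within each of these groups was that of Slfn4. In WT Mo-MDSCs the share of Slfn4 thus lay between those of Csf3r and Mmp8. That of Slfn1 lay just above S100a8, and that of Slfn2 between S100a8 and Ltf. Ltf, Ngp and Camp were lower in DKO-labelled Mo-MDSCs, at 20.7%, 23.9% and 28.8% of the PMN-MDSC mean. The part of neutrophil RNA in the Schlafen values was not tested.

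**Figure D5:**
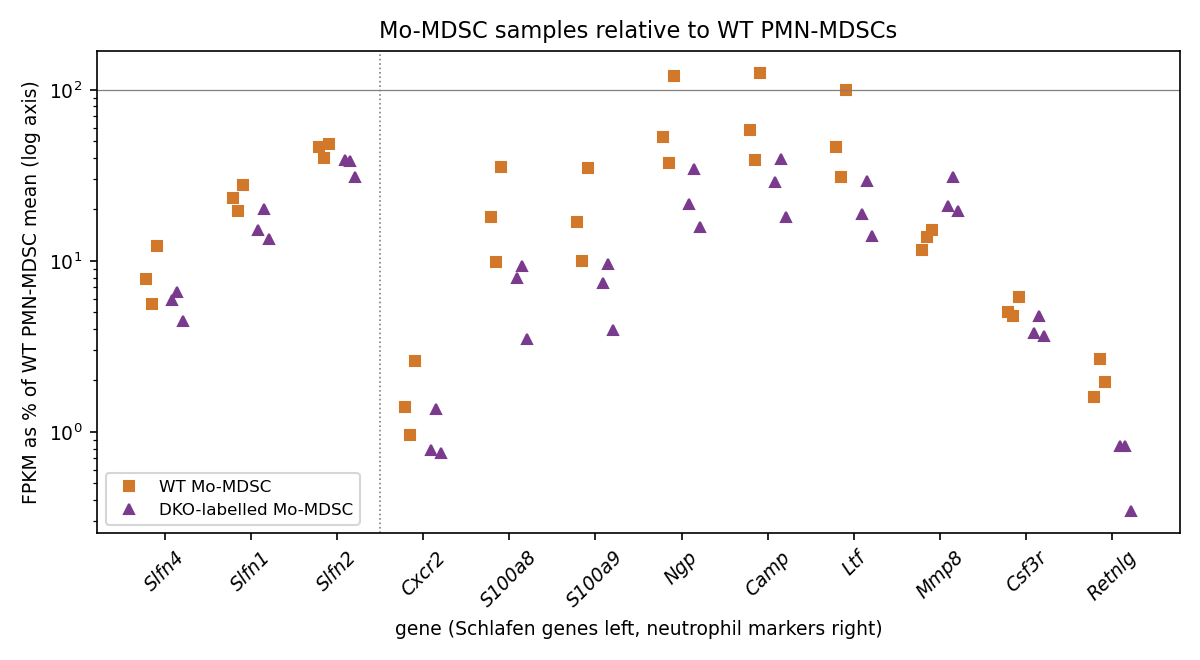
Points give the FPKM of each Mo-MDSC sample as a percentage of the WT PMN-MDSC mean (log axis), for 3 Schlafen genes left of the dotted line and 9 neutrophil markers right of it. WT Mo-MDSCs average 8.54%, 23.6% and 44.9% for Slfn4, Slfn1 and Slfn2, beside 1.66% for Cxcr2 and 74.5% for Camp.

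The second comparison addressed the 2 deletions within Mo-MDSCs. The targeted genes did not separate the groups. Cdkn1a (p21) stood at 8.18, 6.46 and 8.04 FPKM in WT Mo-MDSCs and at 5.55, 8.52 and 6.00 FPKM in the libraries labelled DKO. Cdkn2a, whose locus encodes p16 and a second protein, stood at 0.718, 0.772 and 0.432 FPKM in WT and at 0.258, 0.586 and 0 FPKM in DKO-labelled samples. Which parts were deleted is not given in the sources used here, so these values do not check the labels, and every direction drawn from the DKO-labelled libraries rests on the labels.

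No Schlafen gene was called between DKO-labelled and WT Mo-MDSCs by limma, 0 higher and 0 lower of 7, where 0.166% of the 11451 genes tested were called higher and 0.0873% lower. At an unadjusted p under 0.05 there were 2 of 7 members, Slfn1 and Slfn2, beside 1719 of the 11451 genes tested (15.01%). Slfn1 stood at 48.1, 63.5 and 42.5 FPKM in DKO-labelled samples, of which the second lay inside the WT range of 62.3 to 88.2 FPKM. Its log2 difference was -0.55 (SE 0.18, 95% interval -0.96 to -0.14 without adjustment, adjusted p = 0.24 by limma).

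Slfn2 stood at 199, 196 and 158 FPKM in DKO-labelled samples, all below the WT samples. Such a lack of overlap occurred in 12.9% of all genes tested in this direction and in 7.96% in the other, where no member showed it. The log2 difference of Slfn2 was -0.31 (SE 0.12, adjusted p = 0.30 by limma). Slfn4 stood at 21.7, 24.2 and 16.5 FPKM, with a log2 difference of -0.54 (SE 0.27, 95% interval -1.17 to 0.09, adjusted p = 0.39 by limma), and -0.25 without the third WT sample, the highest in Slfn4, Cxcr2 and the neutrophil marker sum. The neutrophil marker sums of the 3 DKO-labelled samples, which S100a8 and S100a9 make up for the most part, were all below those of the WT samples. Mmp8, a neutrophil collagenase on the same list, lay the other way without overlap, at 76.0, 112 and 71.7 FPKM against 42.3, 50.2 and 55.2 in WT.

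The long members and Slfn3 differed less. Slfn5 stood at 68.5, 66.2 and 54.1 FPKM in DKO-labelled samples (log2 difference -0.25, 95% interval -0.53 to 0.03). Slfn8 stood at 32.7, 28.3 and 26.4 FPKM (0.02, -0.23 to 0.28) and Slfn9 at 4.36, 3.66 and 4.66 FPKM (-0.19, -0.48 to 0.11). Slfn3 stood at 7.37, 7.53 and 8.76 FPKM (-0.12, -0.40 to 0.15). All 4 overlapped between the groups. These small differences depended on single libraries: without DKO-labelled sample 3 that of Slfn5 was -0.14 and that of Slfn2 -0.20, without DKO-labelled sample 2 that of Slfn9 was -0.09, and with 1 sample left out that of Slfn3 ran from -0.20 to -0.05 and that of Slfn8 from -0.06 to 0.09. The median over the 7 members was -0.25, beside -0.02 over all genes tested.

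Interferon lists gave few calls in this comparison. None of 36 effectors and none of 11 interferon-gamma GTPases was called by limma, beside 0.166% higher and 0.0873% lower over all genes tested. An unadjusted p under 0.05 was reached by 7 and 3 of them, beside 15.01% of all genes tested. Of 14 receptors and signal transducers 1 was lower, Socs3, which stood at 32.5, 38.2 and 35.7 FPKM in WT and at 14.6, 20.1 and 15.3 FPKM in DKO-labelled Mo-MDSCs (log2 difference -1.10, adjusted p = 0.028 by limma). This call was lost within samples 2 and 3 and in 5 of 6 fits that left out 1 sample. This comparison shares the WT Mo-MDSC samples with the first, so the pair of differences of each gene was not correlated.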

How the data were processed

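The 9 expression files, 1 per sample, hold FPKM values per gene symbol, which the authors computed with Cuffnorm 2.2.1 after mapping 75-base single-end reads of stranded mRNA libraries to mm10 with TopHat2 2.0.13, Bowtie2 2.2.3 and SAMtools 0.1.19 (methods and the submitters' processing notes). The annotation and the library scaling are not given in the sources used here. FPKM keep no read counts, so the depth behind a value is unknown. The most frequent ratio of values under 0.5 FPKM put relative depths at 0.809 to 1.31 of the first WT Mo-MDSC sample, but most values did not fall on such steps. Totals were 494252 to 916642 FPKM, and 11299 to 11418 genes reached 1 FPKM per sample. FPKM are relative values, and their totals differ, so a given FPKM is not the same share of RNA in every sample. Totals were 711675 to 916642 FPKM in PMN-MDSCs and 494252 to 618250 FPKM in Mo-MDSCs. The main fit did not rescale for this, so folds of FPKM are not folds of RNA shares.

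Samples were grouped by their titles. Values were tested on log2(FPKM + 0.1) with limma 3.58.1 (R 4.3.3, lmFit, eBayes with trend), 6 samples per comparison, over genes that reached 1 FPKM in 3 or more of the 6, two-sided, with Benjamini-Hochberg adjustment over all genes tested; called means an adjusted p under 0.05. A fold on this scale understates changes of low genes. Fits were tested on simulated data. The members and gene lists were chosen with earlier results of these data known, and the lists come from general knowledge. Named genes are the members, other Slfn symbols, the flanking genes, the 3 called genes with the largest difference from each interferon list with Ifnar1 and Irf7, the 3 genes most like each member, the targeted genes and the markers; some genes that this rule names are not reported here. Of the listed genes, the symbols Hbb-bs, Ifit3b, Ly6g and Phf11d had no row. In the first comparison same-numbered samples deviated together (correlations 0.200 to 0.483 for 3 pairs). Other pairs averaged -0.163, but deviations were taken from each group's own mean, which largely fixes this value, so it is no separate evidence. The numbers may thus pair the samples there, as a hint from the data. The fit with the pairing as a block called the same 6 members, and the adjusted p of Slfn5 was then 0.0052 by limma. Alternatives were other pseudocounts and filters, all 9 samples in 1 fit, no variance moderation, quantile normalization, median centring, the block, samples 2 and 3 only, and each sample left out; where this left 2 samples in a group, 2 samples had to pass the filter.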

Additional observations from a re-analysis of the deposited data

How the results depend on the processing

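Of the differences of single members, 101 of 112 kept direction and call between WT Mo- and PMN-MDSCs under the alternatives, and 109 of 112 between DKO-labelled and WT Mo-MDSCs. The exceptions were Slfn5, whose call in the first comparison was lost in 7 fits, and Slfn8, whose difference near 0 turned negative within samples 2 and 3 (-0.0042 in the first and -0.0053 in the second comparison), without WT PMN-MDSC sample 2 (-0.041), without WT Mo-MDSC sample 1 (-0.037) or 3 (-0.0043) in the first, and without WT Mo-MDSC sample 2 (-0.053) or DKO-labelled sample 1 (-0.060) in the second; with 1 sample left out it reached at most 0.096 and 0.092. Genes called over the whole table numbered 4492 in the first comparison, 2960 within samples 2 and 3, 6584 with the replicate block and 3418 to 3974 with 1 sample left out. In the second comparison they numbered 29, and 13 with no filter, 51 with all 9 samples in 1 fit, 0 without variance moderation (1326 at an unadjusted p under 0.05), 12 within samples 2 and 3 and 4 to 23 with 1 sample left out, with 4, 10 and 11 without DKO-labelled samples 3, 2 and 1 and 8 and 13 without WT samples 3 and 1. Interferon-gamma GTPases called in the first comparison numbered 5, 3 without variance moderation and 3 to 6 with 1 sample left out. Of the receptors and signal transducers, the 1 call of the second comparison became 0 with no filter, without moderation and within samples 2 and 3, and 0 to 1 with 1 sample left out. In the second comparison same-numbered samples correlated by -0.070 to 0.348, which does not pair them, and the replicate block gave 20 calls over the whole table and 0 members. The block changed no call of a member in either comparison. The cause of these changes was not tested. Levels of members kept within 1 SD under quantile normalization in 17 of 21 cases. The 4 that moved included the most abundant members in WT PMN-MDSCs. There the mean log2(FPKM + 0.1) fell from 8.29 to 7.93 for Slfn1, from 8.98 to 8.58 for Slfn2 and from 8.52 to 8.19 for Slfn4. Slfn2 in DKO-labelled Mo-MDSCs rose from 7.52 to 7.75. With 3 samples per group and no read counts, differences as small as that of Slfn5 are at the limit of what the spread allows.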
